A study of Mus musculus with 18 samples.

Results

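The genes that flank Thrb, which encodes thyroid hormone receptor β (THRB), on mouse chromosome 14 were followed in hypothalamus, pituitary and thyroid of mice with an edited Thrb gene. 8 protein-coding genes were chosen by name from the deposited tables: Oxsm, Ngly1, Top2b and Rarb before Thrb on the chromosome, and Nr1d2, Nkiras1, Ube2e1 and Ube2e2 after it. They are 8 of the 24027 genes measured in all 3 tissues. Rpl15, which lies among them, is not one of the 8 and is described separately. K146Q mice carry a whole-body homozygous knock-in that replaces a lysine of THRB, to which the protein modifier SUMO is attached, with glutamine. The mutation was made by gene targeting and the line was backcrossed to its C57BL/NTC background. WT and K146Q mice were males of 3 months, labelled as strain C57BL/Ntac, with 3 mice per genotype (WT mice 1, 2 and 43, K146Q mice 60, 62 and 83) and 1 RNA-Seq library per tissue and mouse, 18 in all. The flanking DNA of the K146Q mice passed through the same targeting and crosses as Thrb, so genotype and the history of this chromosome stretch cannot be told apart. The comparison asked whether genes beside the edited locus shifted with genotype in every tissue.

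No neighbour passed the test in every tissue. In hypothalamus none passed, against 0% of all genes, so no gene at all could pass in every tissue. In pituitary none passed, against 6.34% of genes higher and 3.5% lower. In thyroid 5 of the 8 (Oxsm, Ngly1, Top2b, Ube2e1 and Ube2e2) were lower in K146Q mice, by 17.9% to 34.1% of the WT mean. Of all thyroid genes tested 18.1% were lower and 19.7% higher, and without K146Q mouse 62 the count of lower neighbours was 2. The neighbours closest to Thrb on the 3′ side, Nr1d2 and Nkiras1, did not pass the test in any tissue. Their thyroid 95% intervals were wide (log2 -0.54 to 0.25 and -0.42 to 0.31), so a fall in either remains possible. Ube2e1, which overlaps Nkiras1 and lies 245 kb from Thrb against 233 kb for Nkiras1, was among the neighbours lower in thyroid. Rpl15, which lies after Nr1d2 and overlaps the start of Nkiras1, was higher in the K146Q thyroid.

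Neighbouring genes can share enhancers, promoters or chromatin domains, and a gene edited by homologous recombination keeps flanking DNA from the targeted cells until crossing over removes it. For these reasons neighbours are a common check on an edited allele. The 8 genes have unrelated functions: a retinoic acid receptor, a DNA topoisomerase, a clock repressor, a glycan-removing enzyme, a mitochondrial fatty acid enzyme, a regulator of NF-κB and a pair of ubiquitin-conjugating enzymes. Rarb and Nr1d2 are, like Thrb, nuclear receptor genes.

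In GENCODE M21 (GRCm38) Thrb spans 17660261 to 18038090 of chromosome 14 on the plus strand. Before it lie Oxsm (16238652 to 16249808, minus strand), Ngly1 (16249280 to 16311926, plus), Top2b (16365179 to 16435462, plus) and Rarb (16430839 to 16819156, minus). After it lie Nr1d2 (18204054 to 18239127, minus), Nkiras1 (18271136 to 18284003, plus), Ube2e1 (18282722 to 18331859, minus) and Ube2e2 (18573575 to 18894267, minus). The gap to Thrb was 166 kb for Nr1d2, 233 kb for Nkiras1, 245 kb for Ube2e1, 535 kb for Ube2e2 and 841 kb for Rarb. It was 1225 kb for Top2b, 1348 kb for Ngly1 and 1410 kb for Oxsm.

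Oxsm and Ngly1 are divergent genes whose annotated bodies overlap, since Oxsm reaches to 16249808 and Ngly1 begins at 16249280. The stretch shown next therefore lies within the annotated body of Oxsm. The 105 bases that separate the first exon of Ngly1 from an exon of Oxsm are shown because this pair changed most among the neighbours that passed the test. They are given on the plus strand from the RefSeq promoter windows (GRCm38.p6, chr14:16249175-16249279), with each of the 14 CpG dinucleotides in capitals, and 78.1% of the bases are G or C.
between Oxsm and Ngly1: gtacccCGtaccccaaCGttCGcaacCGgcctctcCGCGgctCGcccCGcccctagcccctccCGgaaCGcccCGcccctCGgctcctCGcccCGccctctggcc
Promoter windows of 300 bases, from 250 before to 50 after an annotated start, were found in the RefSeq set for 7 of the 8 neighbours (10 windows). Nkiras1 had no entry. A direct repeat of the half-site AGGTCA or AGTTCA, each also with G as its first base, with 4 bases between them (DR4, the spacing that thyroid hormone receptors favour) or 5 bases (DR5, favoured by retinoic acid receptors), an E-box (CACGTG) and a cAMP response element (CRE, TGACGTCA) were searched on both strands. The only match in the 10 windows was a DR5 in the Rarb window, which began 53 bases before the start. Over the 32851 promoters searched, which did not cover every chromosome, 0.0974% held a DR5, 0.0822% a DR4, 7.15% an E-box and 1.79% a CRE. The 250 bases before this Rarb start (chr14:16575477-16575726, minus strand, 5′ to 3′) are shown for the DR5, in capitals.
Rarb: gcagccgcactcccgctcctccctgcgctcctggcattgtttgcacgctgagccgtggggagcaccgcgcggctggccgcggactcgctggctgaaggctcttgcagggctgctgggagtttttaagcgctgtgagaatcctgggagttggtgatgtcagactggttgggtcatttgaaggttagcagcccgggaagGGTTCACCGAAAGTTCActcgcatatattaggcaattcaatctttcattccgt

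Several neighbours share transcribed bases, which limits what their counts can separate. Rarb and Top2b lie on opposite strands and share 1793 exonic bases, which are 34.1% of the exonic length of Rarb and 12.3% of that of Top2b. Nkiras1 and Ube2e1 share 718 bases (13.1% and 16.1%), Nkiras1 and Rpl15 share 105, and Ngly1 and Oxsm share 21. Whether the counting used strand is not given in the sources used here, so reads in these stretches could have been assigned to either gene and the values of Rarb, Top2b, Nkiras1 and Ube2e1 are uncertain to that extent. Ngly1 had no 50-base stretch in common with another transcript.

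Libraries held 14902330 to 21230050 reads, as recovered from the deposited values, which are counts per unit of normalized library size (CPM). The neighbours rested on 14 to 3534 reads per library, with Rarb in thyroid the most thinly covered (14 to 48 reads). Thyroid (Tg, Foxe1), pituitary (Gh, Prl, Pou1f1) and hypothalamus (Agrp, Hcrt, Sim1) marker lists had no gene at 0 in their own tissue, nor in the others. In WT libraries thyroid markers summed to 295827 to 359183 CPM in thyroid and 140 to 225 CPM elsewhere. Pituitary markers summed to 132396 to 255974 CPM in pituitary and 129 to 594 CPM elsewhere. The hypothalamus list, which shares Pomc with the pituitary list, summed higher in pituitary (7562 to 11552 CPM) than in hypothalamus (328 to 413 CPM). In hypothalamus the library of K146Q mouse 83 stood apart, with a summed level of 5 striatum markers of 306 CPM against 145 to 162 CPM in the other 5 libraries. In thyroid the library of WT mouse 1 stood apart. Its pituitary markers were the highest, at 594 CPM against 137 CPM in WT mouse 43 and 99.7 to 155 CPM in K146Q mice. Its hypothalamus list was also highest, at 52.9 CPM against 7.83 to 10.5 CPM in K146Q mice. Its skeletal muscle markers were lowest, at 256 CPM. Without this library 3 neighbours passed the test in thyroid. The part of pituitary RNA in the thyroid values of the neighbours was not tested. All tissues are bulk samples, in which fewer cells of a type and less RNA per cell cannot be told apart.

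Thrb itself came first as the edited gene, although the level of its mRNA does not check a point mutation. In hypothalamus Thrb was at 27.0, 28.8 and 28.1 CPM in the WT libraries and at 26.7, 26.1 and 29.96 CPM in the K146Q libraries. In pituitary it was at 104, 97.8 and 106 CPM in WT and at 159, 142 and 184 CPM in K146Q mice, and in thyroid at 14.9, 16.3 and 15.6 CPM in WT and at 7.19, 5.64 and 4.98 CPM in K146Q mice. The genotypes overlapped in hypothalamus and were apart in pituitary, where K146Q was higher, and in thyroid, where K146Q was lower. The log2 fold changes (K146Q minus WT on log2(CPM + 0.5), limma with a mean-variance trend, Benjamini-Hochberg over all genes of the tissue) were -0.02 (SE 0.07, adjusted p = 0.998), 0.65 (SE 0.10, adjusted p = 0.00287) and -1.33 (SE 0.15, adjusted p = 0.000622). Thrb therefore had 3 different genotype differences in the 3 tissues, and the neighbours are set beside each below.

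**Figure D1:**
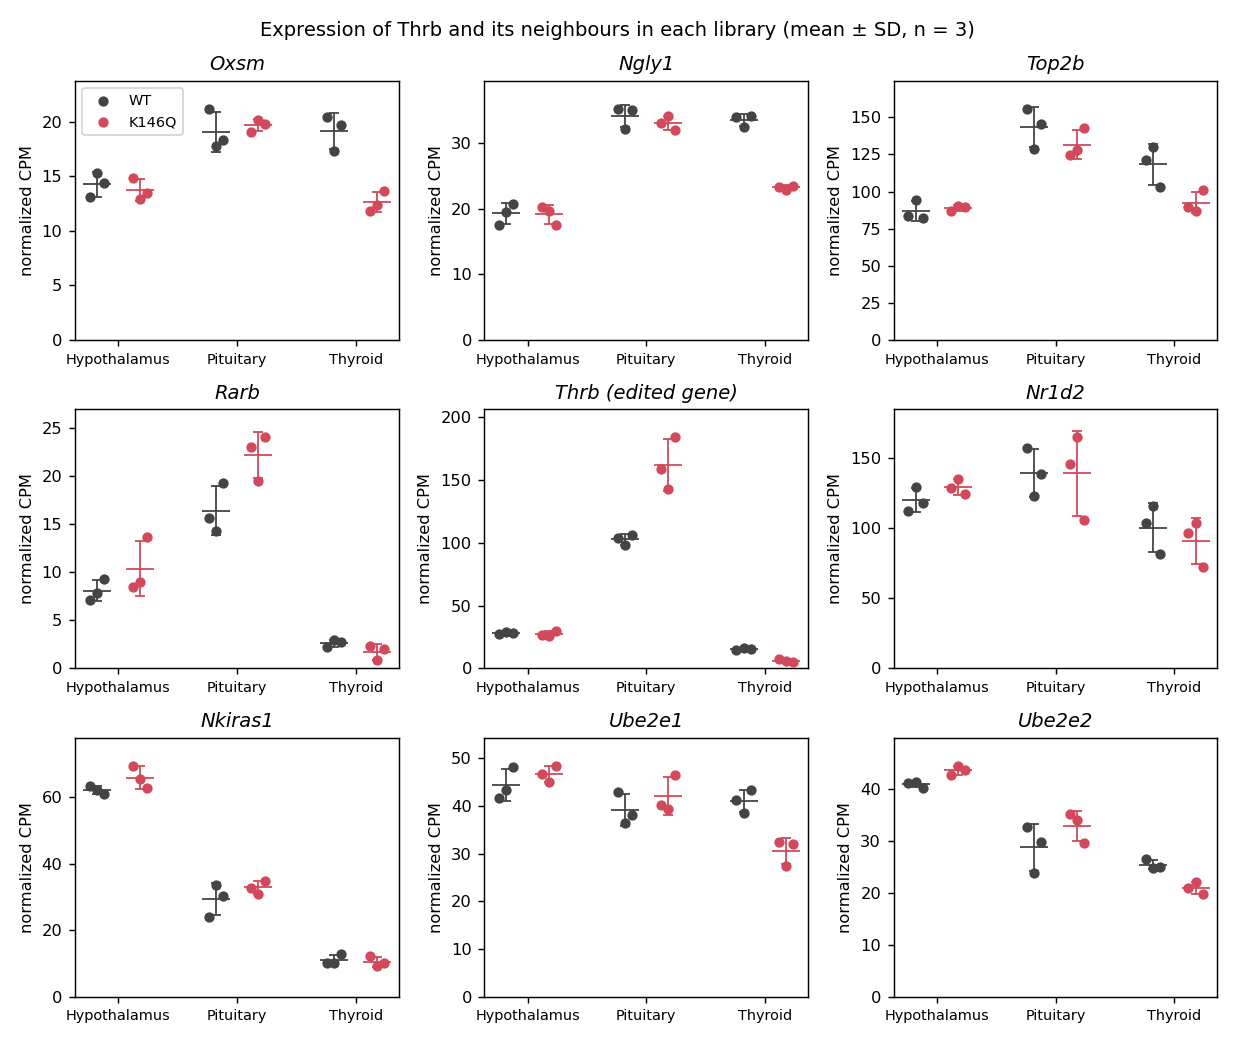
Normalized CPM (vertical axes, from 0) of Thrb and its 8 neighbours, in order along the chromosome, in each library of 3 tissues, with WT in grey and K146Q in red. Points are libraries and bars are mean ± SD (n = 3). The K146Q thyroid libraries lie below all WT thyroid libraries for Oxsm, Ngly1, Top2b, Ube2e1, Ube2e2 and Thrb.

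The WT mice show how far the neighbours differ between tissues. Per kb of exon, Nr1d2 was the most abundant neighbour in each tissue, with WT means of 22.2 ± 1.59, 25.8 ± 3.19 and 18.6 ± 3.25 CPM per kb (SD, n = 3) in hypothalamus, pituitary and thyroid. Rarb was the least abundant in each tissue, with 1.54 ± 0.21, 3.12 ± 0.49 and 0.50 ± 0.07 CPM per kb. In CPM, the pituitary level of Rarb was 6.25 times its thyroid level, and the hypothalamus level of Nkiras1, which encodes a Ras-like protein that holds back NF-κB, was 5.66 times its thyroid level. The remaining 6 neighbours spanned 1.13 times (Ube2e1) to 1.77 times (Ngly1) between their highest and lowest tissue.

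Between WT tissues (limma over the 18 libraries, 6 group means) 6 of the 8 neighbours differed between pituitary and hypothalamus, against 73.2% of the 17066 genes tested. Likewise 6 differed between thyroid and hypothalamus, against 82.2% of genes, and 4 between thyroid and pituitary, against 75.9%. The last count was 8 with library totals taken without the 10 highest genes, and 2 without WT mouse 1 or WT mouse 43. Oxsm and Ngly1 were lowest in hypothalamus, by 0.41 and 0.81 on the log2 scale against pituitary, and did not differ between pituitary and thyroid beyond their spread (differences of 0.01, 95% interval -0.20 to 0.21, and -0.02, -0.18 to 0.13). Ube2e1 passed the test between no pair of tissues. The order of Nkiras1 (hypothalamus, pituitary, thyroid) and of Rarb (pituitary, hypothalamus, thyroid) was separated at both steps, with differences of -1.09 and -1.37 for Nkiras1 and of -0.97 and -1.46 for Rarb, all with an adjusted p of 0.00143 or less.

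**Figure D2:**
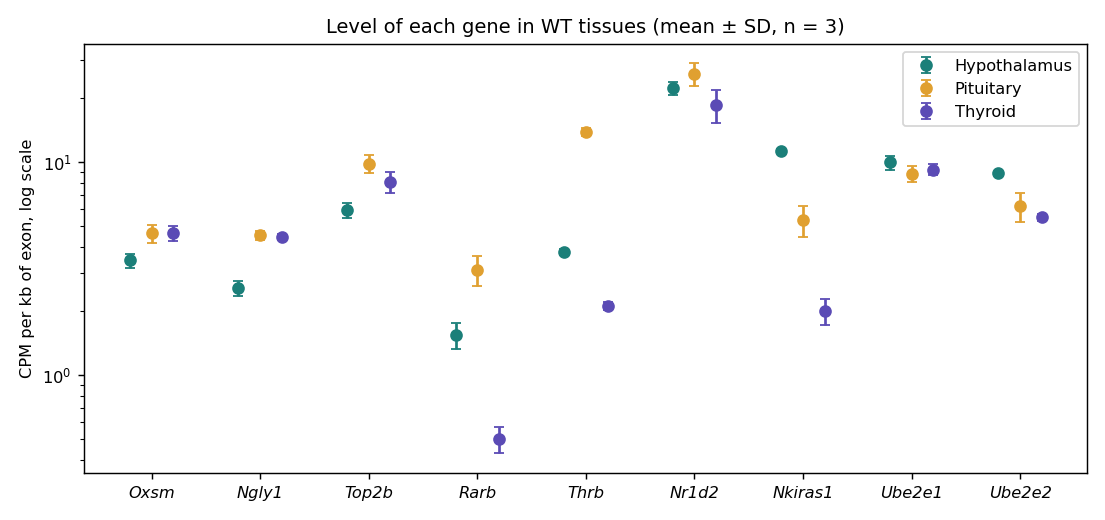
Level of Thrb and its neighbours in WT tissues, in CPM per kb of exonic length on a log axis, as mean ± SD of 3 mice. Nr1d2 is at the top in each tissue and Rarb at the bottom, and Rarb and Nkiras1 spread most between tissues.

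In hypothalamus none of the 8 neighbours passed the test, against 0% of all 15737 genes (limma, 644 genes at an unadjusted p under 0.05, 9 genes called by DESeq2 and 0 by edgeR). None of the 8 had an unadjusted p under 0.05. Their log2 fold changes ran from -0.05 (Oxsm) to 0.32 (Rarb), with a median of 0.08 against -0.001 over all genes. The 95% intervals bounded the difference within -0.25 to 0.24 for every neighbour but Rarb, whose interval was -0.06 to 0.70.

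Rarb, a receptor that switches genes on in response to retinoic acid, was at 7.16, 7.80 and 9.34 CPM in WT hypothalamus and at 8.51, 8.96 and 13.7 CPM in K146Q hypothalamus. The last of these was mouse 83, the library with the raised striatum markers, and the other 2 K146Q values lay within the WT range. Without that library the log2 fold change of Rarb was 0.11 instead of 0.32. The part of striatum RNA in the Rarb value was not tested.

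Ube2e2 was the one neighbour whose hypothalamus groups did not overlap, at 41.3, 41.4 and 40.3 CPM in WT and 42.8, 44.5 and 43.7 CPM in K146Q mice. The difference was 0.09 on the log2 scale (SE 0.05, adjusted p = 0.998), and 4.2% of all genes were higher without overlap in this tissue.

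In pituitary none of the 8 neighbours passed the test, while 6.34% of 15566 genes were higher and 3.5% were lower in K146Q mice. With library totals taken without the 10 highest genes the 987 higher and 545 lower genes became 832 and 876, and no neighbour was called. Neighbour log2 fold changes ran from -0.12 (Top2b) to 0.43 (Rarb), with a median of 0.08 against -0.01 over all genes.

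Rarb again had the highest value. It was at 15.6, 14.4 and 19.3 CPM in WT pituitary and at 23.1, 19.6 and 24.1 CPM in K146Q pituitary. Each K146Q library was above each WT library, although WT mouse 43 and K146Q mouse 62 were nearly equal, and 16.7% of all genes were higher without overlap. The log2 fold change was 0.43 (SE 0.13, adjusted p = 0.0725), and the exact two-sided permutation test gave p = 0.1, the smallest that 3 mice against 3 allow. The call turned with the tool and with 1 library: the adjusted p was 0.0420 in DESeq2, 0.0291 without WT mouse 43 and 0.0686 in edgeR. Top2b, whose exons overlap those of Rarb on the other strand, was at 156, 129 and 145 CPM in WT and 125, 128 and 143 CPM in K146Q pituitary, with a log2 fold change of -0.12 (SE 0.09, adjusted p = 0.444).

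Nr1d2, a nuclear receptor without activator function that represses clock genes, varied most between mice in pituitary. It was at 157, 123 and 139 CPM in WT and at 146.3, 165 and 106 CPM in K146Q mice. K146Q mouse 83 had the lowest Nr1d2 of the K146Q mice in each of the 3 tissues. The pituitary log2 fold change was -0.02 (SE 0.15, adjusted p = 0.951) with a 95% interval of -0.36 to 0.32, so differences inside that interval remain possible.

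In thyroid 5 of the 8 neighbours fell in K146Q mice and none rose, against 18.1% of 15177 genes that were lower and 19.7% that were higher. All 8 log2 fold changes were below 0, against 52.6% of all genes, and their median was -0.38 against -0.03. With totals taken without the 10 highest genes the median of all genes became -0.12, the 2986 higher and 2743 lower genes became 2491 and 3607, and 5 neighbours were again lower. The count was 4 in DESeq2, with median-of-ratios scaling and without the filter, 3 without the trend, and 2 to 4 when a mouse was left out (2 without K146Q mouse 62, 3 without WT mouse 1, WT mouse 2 or K146Q mouse 60). The groups of 5 neighbours did not overlap, against 25.7% of genes lower without overlap, and for each of these the exact two-sided permutation test gave p = 0.1, the smallest possible.

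Ngly1, the cytosolic enzyme that strips N-glycans from misfolded glycoproteins, was at 34.04, 32.5 and 34.2 CPM in WT thyroid and at 23.4, 22.9 and 23.5 CPM in K146Q thyroid. The groups were far apart relative to their spread, and the K146Q mean was 30.7% below the WT mean. The log2 fold change was -0.52 (SE 0.08, adjusted p = 0.00226), and it passed the test without any 1 of the 6 mice and in the 10 other processing settings. Oxsm, the mitochondrial ketoacyl synthase of the pathway that feeds lipoic acid synthesis, was at 20.4, 17.3 and 19.7 CPM in WT and at 11.8, 12.4 and 13.6 CPM in K146Q thyroid. It was 34.1% lower, with a log2 fold change of -0.58 (SE 0.11, adjusted p = 0.00642), and it too passed the test in each of those fits.

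The ratio of this divergent pair moved little. The log2 of Ngly1 over Oxsm was 0.80 ± 0.08 (SD, n = 3) in WT and 0.86 ± 0.10 in K146Q thyroid, a difference of 0.06 (exact two-sided permutation test, p = 0.5). The same ratio was 0.83 ± 0.10 in WT pituitary and 0.43 ± 0.08 in WT hypothalamus.

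Ube2e1, which encodes a ubiquitin-conjugating enzyme of the UBE2E group, was at 41.2, 38.6 and 43.3 CPM in WT thyroid and at 32.5, 27.5 and 32.0 CPM in K146Q thyroid. Its log2 fold change was -0.42 (SE 0.10, adjusted p = 0.0131), with an adjusted p of 0.0540 without K146Q mouse 62. Ube2e2, its paralog farther along the chromosome, was at 26.5, 24.9 and 25.1 CPM in WT and at 20.9, 22.1 and 19.8 CPM in K146Q mice. Its log2 fold change was -0.28 (SE 0.09, adjusted p = 0.0447), and the call was lost in all 6 fits that left out 1 mouse, with adjusted p between 0.0736 and 0.137. It was also lost in DESeq2, with median-of-ratios scaling and without the trend.

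Top2b, the topoisomerase II form found in dividing and resting cells alike, was at 122, 130 and 103 CPM in WT thyroid and at 89.5, 87.2 and 101 CPM in K146Q thyroid. WT mouse 43 and K146Q mouse 83 were nearly equal, at the edges of their groups. The log2 fold change was -0.35 (SE 0.11, adjusted p = 0.0361). The call was lost without WT mouse 1, WT mouse 2, K146Q mouse 60 or K146Q mouse 62 (adjusted p between 0.0957 and 0.131), without the filter and without the trend.

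The other 3 neighbours did not pass the test in thyroid. Rarb was at 2.21, 2.91 and 2.77 CPM in WT and at 2.38, 0.823 and 1.99 CPM in K146Q thyroid, with K146Q mouse 60 inside the WT range and a log2 fold change of -0.56 (SE 0.30, adjusted p = 0.188). K146Q mouse 62 decided that value, which was -0.22 without it and down to -0.78 without K146Q mouse 60. Nr1d2 was at 104, 116 and 81.5 CPM in WT and at 96.5, 104 and 72.6 CPM in K146Q mice, a log2 fold change of -0.14 with a 95% interval of -0.54 to 0.25. Nkiras1 was at 10.04, 10.1 and 12.8 CPM in WT and at 12.2, 9.23 and 10.2 CPM in K146Q mice, a log2 fold change of -0.05 with a 95% interval of -0.42 to 0.31. The groups overlapped for all 3. Whether these 3 differed from the neighbours that fell was not tested.

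**Figure D3:**
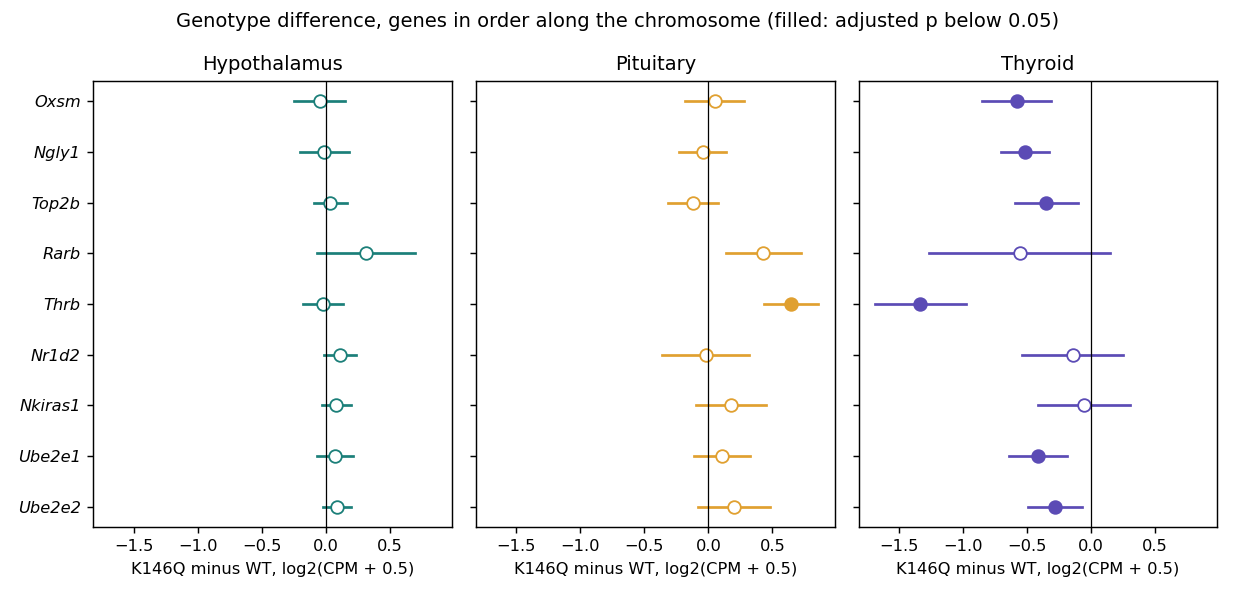
Genotype difference (K146Q minus WT on log2(CPM + 0.5), horizontal axes) with its 95% interval for Thrb and its neighbours, in order along the chromosome, in each tissue. Filled points have an adjusted p below 0.05: Thrb in pituitary (0.65), and Thrb (-1.33) with Oxsm, Ngly1, Top2b, Ube2e1 and Ube2e2 in thyroid.

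Cell type markers moved with genotype in the same thyroid libraries. Tg, the thyroglobulin gene, was at 293439 to 357296 CPM in WT and 83869 to 130421 CPM in K146Q thyroid, without overlap. Its log2 fold change of -1.71 had an SE of 5.14 and did not pass the test (limma, adjusted p = 0.820). That SE, which leans on the mean-variance trend, is far wider than the spread of the libraries, so the missed call does not show an unchanged Tg. The authors reported Tg as significantly lower in K146Q thyroid. The other 5 thyroid markers summed to 1886 to 2388 CPM in WT and 1993 to 2275 CPM in K146Q thyroid, and 2 of these 5 were called lower and 1 higher. The 4 adipocyte markers all fell, from a sum of 360 to 405 CPM in WT to 54.1 to 108 CPM, and the 3 parathyroid markers all fell, from 3454 to 6409 CPM to 523 to 1569 CPM. The 6 proliferation markers all rose, from 48.0 to 73.8 CPM to 173 to 221 CPM, and the 4 leukocyte markers summed to 28.4 to 40.3 CPM in WT and 65.7 to 80.8 CPM in K146Q thyroid (2 of 3 tested called higher). The 4 skeletal muscle markers varied between 256 and 5380 CPM over WT libraries and passed no test. The part of these changes in the lower levels of the neighbours was not tested. No marker of these lists was at 0 in all libraries of any tissue, so the absence of zeros does not tell the tissues apart.

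The difference between tissues was tested directly, as the difference of the genotype effects in a fit of all 18 libraries. The thyroid effect was below the hypothalamus effect for 5 neighbours, against 15.3% of 17066 genes, and below the pituitary effect for 5, against 17.5%. These comparisons share the thyroid libraries. Against hypothalamus the differences were -0.53 for Oxsm (adjusted p = 0.00711), -0.51 for Ngly1 (0.00159), -0.49 for Ube2e1 (0.00633), -0.39 for Top2b (0.0313) and -0.37 for Ube2e2 (0.0441). Against pituitary they were -0.99 for Rarb (0.0325), -0.63 for Oxsm (0.00203), -0.52 for Ube2e1 (0.00396), -0.48 for Ube2e2 (0.0106) and -0.48 for Ngly1 (0.00236), all from limma with Benjamini-Hochberg adjustment. With the mouse number as a replicate block the count against hypothalamus became 6, since Rarb was added with -0.87 (adjusted p = 0.0467, against 0.0601 without the block). Without WT mouse 1, K146Q mouse 60 or K146Q mouse 62 the count against hypothalamus was 3, as it was without the filter or the trend. The count against pituitary was 4 in 5 of the 6 fits that left out 1 mouse and without the filter. The call lost was Ube2e2 without K146Q mouse 60 (adjusted p = 0.0606) and Rarb in the others (adjusted p between 0.0535 and 0.149), and Rarb rested on 14 to 48 reads per thyroid library. Between pituitary and hypothalamus no neighbour's effect differed, against 3.26% of genes, with differences from -0.16 (Top2b) to 0.11 (Rarb).

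Averaged over the 3 tissues, 3 neighbours were lower in K146Q mice, against 13.8% of genes lower and 15.6% higher. These were Oxsm (-0.19, SE 0.06, adjusted p = 0.0153), Ngly1 (-0.19, SE 0.04, adjusted p = 0.00324) and Top2b (-0.14, SE 0.05, adjusted p = 0.0498). The average rested on thyroid, since the hypothalamus and pituitary log2 fold changes of these 3 genes lay between -0.12 and 0.05. Paired by mouse with the replicate block, Top2b was lost (adjusted p = 0.0687) and 2 neighbours remained, and with 1 mean per mouse only Ngly1 passed (adjusted p = 0.0393). Leaving out K146Q mouse 60 or K146Q mouse 62 also left 1 neighbour. The other 5 averages ran from -0.08 (Ube2e1) to 0.07 (Nkiras1).

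Rpl15, which encodes a protein of the large ribosomal subunit, is the one other expressed gene in the tables within this stretch, between Nr1d2 and Ube2e1. It was at 332 ± 17.2 CPM (SD, n = 3) in WT and 468 ± 54.7 CPM in K146Q thyroid, a log2 fold change of 0.49 (SE 0.11, adjusted p = 0.0117), opposite in direction to the neighbours that fell. In hypothalamus and pituitary its log2 fold changes were -0.01 (adjusted p = 0.998) and 0.11 (adjusted p = 0.306).

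By distance from Thrb, the nearest neighbours in thyroid, Nr1d2 and Nkiras1, had log2 fold changes of -0.14 and -0.05 and the farthest, Oxsm, had -0.58. Between them, in order of distance, Ube2e1 had -0.42, Ube2e2 -0.28, Rarb -0.56, Top2b -0.35 and Ngly1 -0.52. A trend with distance was not tested. Within 1 Mb, 2 of 6 genes were lower and 1 higher, and from 1 to 2 Mb 3 of 6 were lower and 1 higher. All 5 lower genes of these windows are the named neighbours. From 2 to 5 Mb 6 of 40 genes (15%) were lower and 4 (10%) higher, on the rest of chromosome 14 19.1% of 477 were lower and 23.3% higher, and on other chromosomes 18% and 19.6% of 14605. Without the 8 members, 6 of 44 genes within 5 Mb were lower and 6 were higher, with a median log2 fold change of -0.02. Apart from Rpl15 the called genes nearest to Thrb were Nid2, a basement membrane protein gene 1.71 Mb away (log2 fold change 1.27, adjusted p = 0.000921), and Kcnk5, a potassium channel gene 2.1 Mb away (0.98, adjusted p = 0.00170).

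In pituitary 3 of 52 genes within 5 Mb were called, all higher and none of them a member. This share of 5.77% was near the 6.34% of all genes that were higher. They were Plau, the urokinase gene (log2 fold change 1.49, adjusted p = 0.000601, 2.80 Mb away), Il3ra, an interleukin receptor gene (0.85, adjusted p = 0.00426, 3.30 Mb) and Synpr, a synaptic vesicle protein gene (1.25, adjusted p = 0.00115, 4.04 Mb). In hypothalamus 0 of 53 were called, against 0% of all genes. Other than Thrb, no gene within 2 Mb of it passed the test in more than 1 tissue. Farther out, Il3ra was higher in thyroid as well as in pituitary (thyroid log2 fold change 2.11, adjusted p = 0.000334).

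**Figure D4:**
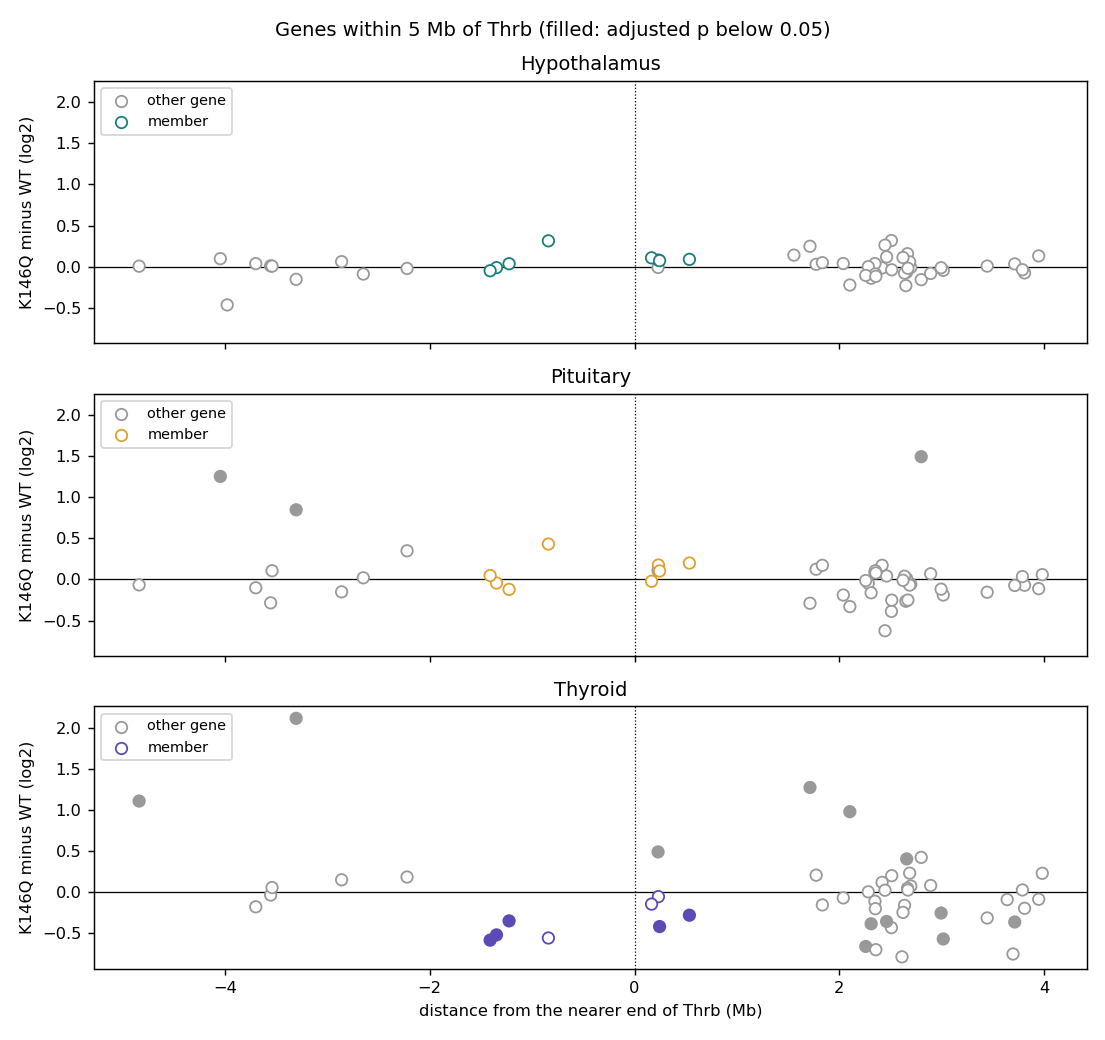
Genotype difference (K146Q minus WT, log2) of genes within 5 Mb of Thrb against the distance in Mb from its nearer end, with neighbours in colour, other genes in grey, and filled points for an adjusted p below 0.05. In thyroid all 8 neighbours lie below 0 and Rpl15 lies above it among them, and in hypothalamus no point is filled.

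Genes with related functions were counted in the same fits. The lists used here and in the next paragraphs were chosen with earlier results of these data known. A list share set beside that of all genes is therefore descriptive only. Over all 77 genes in the pathway lists of the members, 0 of 75 tested were called in hypothalamus, 4 of 74 in pituitary (all higher, 5.41% against 6.34% of all genes) and 29 of 73 in thyroid (19 higher, 10 lower). The thyroid share of 39.7% was near the 37.7% of all genes. Among 11 genes of glycoprotein degradation at the endoplasmic reticulum, the pathway of Ngly1, 3 fell in thyroid (27.3%, against 18.1% of all genes) and none rose. They were Edem1 (-0.54, adjusted p = 0.0383), Engase, another glycan-releasing enzyme (-0.45, adjusted p = 0.0460) and Derl1 (-0.29, adjusted p = 0.0389). Of 7 genes of mitochondrial fatty acid and lipoate synthesis, the pathway of Oxsm, Ndufab1, the acyl carrier protein, fell (-0.39, adjusted p = 0.0152) and Lipt2, a lipoyl transferase, rose (0.83, adjusted p = 0.0114). Of 9 other ubiquitin-conjugating enzymes, Ube2d1 rose (0.43, adjusted p = 0.0160) and none fell, and Ube2e3, the remaining paralog, was not called.

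Of 7 topoisomerases and their repair partners only Top2a, the form of dividing cells, was called in thyroid, and it rose (1.57, adjusted p = 0.000555) while Top2b fell. Of 8 NF-κB genes related to Nkiras1, 6 rose in thyroid (75%, against 19.7% of all genes) and none fell. The leukocyte markers given above were also higher in these libraries, and their part in the NF-κB counts was not tested. The highest were Nfkbie (1.53, adjusted p = 0.00135) and Nfkb2 (0.94, adjusted p = 0.000961), and the lowest of the 6 were Rela (0.65, adjusted p = 0.00182) and Nfkb1 (0.66, adjusted p = 0.00199). Nkiras1 itself was at -0.05.

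Of 17 clock genes tested beside Nr1d2 in thyroid, 3 rose and 3 fell (17.6% each), near the 19.7% and 18.1% of all genes. Nfil3 (3.28, adjusted p = 0.000145) and Per2 (0.86, adjusted p = 0.00907) were the highest and Hlf (-1.47, adjusted p = 0.0231) and Clock (-0.94, adjusted p = 0.00497) the lowest. In pituitary Rorb (0.46, adjusted p = 0.00802) and Hlf (0.43, adjusted p = 0.0153) rose among 18.

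Of 14 retinoid genes related to Rarb, 7 rose (50%, against 19.7% of all genes) and 3 fell (21.4%, against 18.1%) in thyroid. The highest were Stra6, a retinol transporter (2.95, adjusted p = 0.00196), and Cyp26b1, which degrades retinoic acid (2.08, adjusted p = 0.000921). The lowest were Aldh1a3, which makes retinoic acid (-1.91, adjusted p = 0.00621), and Rxrg, a partner receptor (-1.14, adjusted p = 0.0210). In pituitary Cyp26b1 (2.05, adjusted p = 0.0412) and Rxrg (0.45, adjusted p = 0.00466) rose among 14, beside the uncalled 0.43 of Rarb. In hypothalamus none of the 15 tested was called.

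Each neighbour was also matched to the gene whose log2 profile over the 18 libraries lay closest, as the root mean square difference after centring. The closest pairs were Top2b with Ttc21b (0.08), Ngly1 with Cul4a (0.09), Ube2e2 with Vps33a (0.09), Ube2e1 with Rab21 (0.11), Oxsm with Nbr1 (0.11), Nkiras1 with Camk2g (0.14), Nr1d2 with Vps11 (0.16) and Rarb with Rab30 (0.29). The spread of the members' own profiles was 0.21 (Ube2e1) to 1.26 (Rarb) on the same scale. No neighbour had another neighbour as its closest gene. Each was compared with the 11932 other genes at 1 CPM or more in every library. Rarb, itself below that level in a thyroid library, was compared with 11933 and could not be a match. With so many candidates this does not show whether the neighbours vary together.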

How the data were processed

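Libraries from hypothalamus, pituitary and thyroid of 3 WT and 3 K146Q mice were grouped by their labels. The authors deposited 1 table per tissue, with a normalized signal for 24054 genes in every library. Columns of their own genotype comparison (log2 fold change, average level, likelihood ratio, p-value and FDR) were not used. The submitters' processing notes name bcl2fastq 2.17, Bowtie2 2.1.0, RSEM 1.2.15 and mm10; annotation, strandedness and normalization tool are not given in the sources used here. Every deposited signal value was a whole multiple of the worth of 1 read (100% whole within 0.01 of a read), so reads per library were recovered; 3 reads equal 0.133 to 0.190 CPM. Gene names matched GENCODE M21 for 94.6% of genes.

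The main test was limma (3.58.1, R 4.3.3) on log2(CPM + 0.5) with a mean-variance trend, per tissue, for genes at 0.5 CPM or more in 3 or more of 6 libraries, with Benjamini-Hochberg adjustment over all genes and a threshold of 0.05. This scale understates changes of low genes. Differences between tissues used all 18 libraries with 6 group means. edgeR (4.0.16) and DESeq2 (1.42.0) on the recovered reads, other pseudocounts (0.1 and 1), filters and scalings, and leaving out each mouse were alternatives, and the fits were tested on simulated data. The genotype comparison is unpaired, since WT and K146Q mice have different numbers. Across tissues the same number marks the same animal, since the series describes tissues from 3 mice per genotype; deviations of libraries of the same number correlated between -0.08 and 0.31 (median 0.10; over 0.1 in 10 of 18 pairs), and those of other numbers between -0.23 and 0.08. The members and lists were chosen with earlier results of these data known, and 1 gene of the lists is not reported here. Named genes were the members, Thrb, expressed genes between them, the closest profile per member, the called genes of the lists (the 2 highest and 2 lowest where more than 4) and the 3 called genes nearest to Thrb per tissue. Replicates are separate mice.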

Additional observations from a re-analysis of the deposited data

Results flagged for a closer look

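The genotype effect differed between tissues, by a test of the difference itself in the fit of all 18 libraries (limma, Benjamini-Hochberg adjusted p), for Thrb and 6 of its neighbours. Thrb differed by 0.667 between pituitary and hypothalamus (adjusted p = 0.0222), by -1.31 between thyroid and hypothalamus (7.57e-06) and by -1.98 between thyroid and pituitary (6.42e-08). Thyroid minus hypothalamus was -0.535 for Oxsm, -0.509 for Ngly1, -0.493 for Ube2e1, -0.386 for Top2b and -0.37 for Ube2e2. Thyroid minus pituitary was -0.987 for Rarb, -0.631 for Oxsm, -0.521 for Ube2e1, -0.479 for Ube2e2 and -0.476 for Ngly1. Groups of 3 are too small for a check of single outlying samples.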

How the results depend on the processing

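The thyroid calls of Ngly1 and Oxsm were kept in all 16 alternative fits each, and those of Top2b, Ube2e1 and Ube2e2 were lost in some. Depth limits Rarb most, at 14 to 48 reads per thyroid library. With 3 mice per group, the 95% intervals left room for log2 shifts of up to 0.73 for Rarb, 0.45 for Nkiras1 and 0.48 for Ube2e2 in pituitary.

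Members called in thyroid were 3 without the trend and 2 to 4 when a mouse was left out (5 as reported, 2 without K146Q mouse 62). Members called in pituitary were 1 in DESeq2 and 0 to 1 without a mouse, and in hypothalamus 0 throughout. Over all genes, hypothalamus gave 12 calls without the filter, 9 in DESeq2 and 0 to 6 without a mouse (6 without K146Q mouse 83). Pituitary gave 290 without the filter and 620 to 1337 without a mouse (620 without K146Q mouse 60, 747 without K146Q mouse 62), and thyroid 3601 to 5097 (3601 without K146Q mouse 62). Members called for the average over tissues were 1 with 1 mean per mouse, 2 with the replicate block and 1 to 3 without a mouse. For thyroid minus hypothalamus they were 3 without the filter or the trend, 6 with the replicate block and 3 to 5 without a mouse, and for thyroid minus pituitary 4 to 5 without a mouse. The replicate block changed no other count of members. Between WT thyroid and pituitary 8 were called with totals without the 10 highest genes and 2 to 5 without a mouse (2 without WT mouse 1 or WT mouse 43).

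Directions that turned all belonged to values that had not passed the test. With totals without the 10 highest genes Oxsm in pituitary became -0.0075, the average of Ube2e2 -0.053 and the pituitary minus hypothalamus difference of Ube2e1 -0.033, and in edgeR Nr1d2 in pituitary became 0.00087. Without a mouse, hypothalamus values ran from -0.0011 to 0.0997 for Top2b, -0.0734 to 0.0506 for Ngly1, -0.106 to 0.0017 for Oxsm and -0.0802 to 0.0171 for Thrb. Pituitary values ran from -0.00091 to 0.124 for Oxsm and -0.156 to 0.161 for Nr1d2, and thyroid values from -0.287 to 0.0083 for Nr1d2 and -0.161 to 0.0541 for Nkiras1. Averages ran from -0.0643 to 0.234 for Rarb, -0.109 to 0.102 for Nr1d2 and -0.0419 to 0.0461 for Ube2e2, and thyroid minus pituitary from -0.266 to 0.0778 for Nr1d2. Pituitary minus hypothalamus ran from -0.0341 to 0.262 for Rarb, -0.0861 to 0.0541 for Ngly1, -0.0027 to 0.23 for Oxsm, -0.275 to 0.0226 for Nr1d2, -0.0546 to 0.196 for Nkiras1, -0.0488 to 0.139 for Ube2e1 and -0.0255 to 0.20 for Ube2e2. The causes of these changes were not tested.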
